A study of Mus musculus with 2 samples.

Results

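The Dlk1-Dio3 locus is an imprinted domain on mouse chromosome 12 that holds one of the largest groups of miRNA genes in the mammalian genome. Its miRNA genes were chosen by position: every miRNA gene of the deposited tables that GENCODE M21 (mm10) places within fixed bounds, on either strand. The bounds lie 4.54 kb before the first member, Mir1906-1, and 12.04 kb after the last, Mir3072 (chr12:109544541-109747960). The rule found 66 of the 2202 miRNA genes in the tables. They were measured by small RNA sequencing in myotubes of C2C12, a myoblast line from the thigh muscle of a C3H mouse, taken 72 h after the start of differentiation. The series held 1 group of 2 libraries, biological replicates 1 and 2 from separate biosamples of this line, with no treatment named and no undifferentiated control, so no comparison of conditions was possible.

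In these domains only one parental chromosome is active for a given gene. Dlk1, Rtl1 and Dio3 are expressed from the paternal chromosome, and the non-coding RNAs Meg3 (also called Gtl2), anti-Rtl1, Rian and Mirg from the maternal one. The miRNAs are cut from these maternal transcripts, under control of a differentially methylated region upstream of Meg3. The locus is known for high expression in brain, embryo and placenta, and its miRNAs have been linked to muscle stem cells and to muscle regeneration through MEF2A.

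The locus gave 10 reads in replicate 1 and 6 reads in replicate 2. They came from 8 genes, and the other 58 members had no read in either library. The 8 genes were Mir127, Mir431, Mir379, Mir411, Mir299a, Mir376a, Mir134 and Mir154. Their mature sequences, from RefSeq (GRCm38.p6, the mm10 assembly), are shown because they are the annotated products of the only members with reads. Both arms are given, since the counts are per gene and do not separate them. Capitals mark the seed, bases 2 to 8, which pairs with target mRNAs.

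miR-127-5p: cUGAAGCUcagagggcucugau
miR-127-3p: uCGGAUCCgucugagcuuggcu
miR-431-5p: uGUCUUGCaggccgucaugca
miR-431-3p: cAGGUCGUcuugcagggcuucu
miR-379-5p: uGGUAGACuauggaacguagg
miR-379-3p: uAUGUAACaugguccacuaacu
miR-411-5p: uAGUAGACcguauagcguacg
miR-411-3p: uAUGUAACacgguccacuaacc
miR-299a-5p: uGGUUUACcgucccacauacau
miR-299a-3p: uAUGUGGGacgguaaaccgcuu
miR-376a-5p: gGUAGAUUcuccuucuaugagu
miR-376a-3p: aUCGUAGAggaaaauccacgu
miR-134-5p: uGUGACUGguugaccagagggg
miR-134-3p: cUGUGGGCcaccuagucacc
miR-154-5p: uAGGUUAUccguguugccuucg
miR-154-3p: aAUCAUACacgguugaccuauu

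Levels are given as CPM, the reads of a gene per 1000000 reads assigned to miRNA genes. The assigned reads numbered 7581366 in the first library and 9865298 in the second. A single read was therefore worth far less than 1 CPM, and a gene without reads could still lie at up to 0.396 CPM in replicate 1 and 0.304 in replicate 2 (3 reads). Intervals and limits here cover counting error only, because the reads carry no stated molecular identifiers. The labels give the libraries as biological replicates of 1 line, so the spread between them does not describe other lines or muscle tissue.

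The summed level of the locus was 1.32 CPM in replicate 1 (95% exact Clopper-Pearson interval 0.633 to 2.43) and 0.608 CPM in replicate 2 (0.223 to 1.32). These intervals overlap, and the difference between the libraries in this sum was not tested. As a share of miRNA reads this was 0.000132% and 6.08e-05%, or 9.64e-05% ± 5.03e-05 (SD, n = 2). The muscle miRNA Mir206 gave 258404 reads for each read of the whole locus in replicate 1 (interval 140510 to 538859, from the locus count) and 685300 in replicate 2 (314852 to 1867390).

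The members are spread over 203 kb, with 59 genes on the plus strand and 7 on the minus strand. All 8 genes with reads are on the plus strand, the strand of Meg3, Rian and Mirg. By GENCODE M21, 2 members lie in exons of Meg3, 6 lie antisense to an exon of Rtl1 and 1 in sense to it, 4 lie in introns of Rian, 9 in exons and 5 in introns of Mirg, 1 opposite an intron of Mirg, and 38 overlap no annotated long non-coding or protein-coding gene. Mirg as annotated starts within the last group of miRNA genes, so most of that group falls outside its model.

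**Figure D1:**
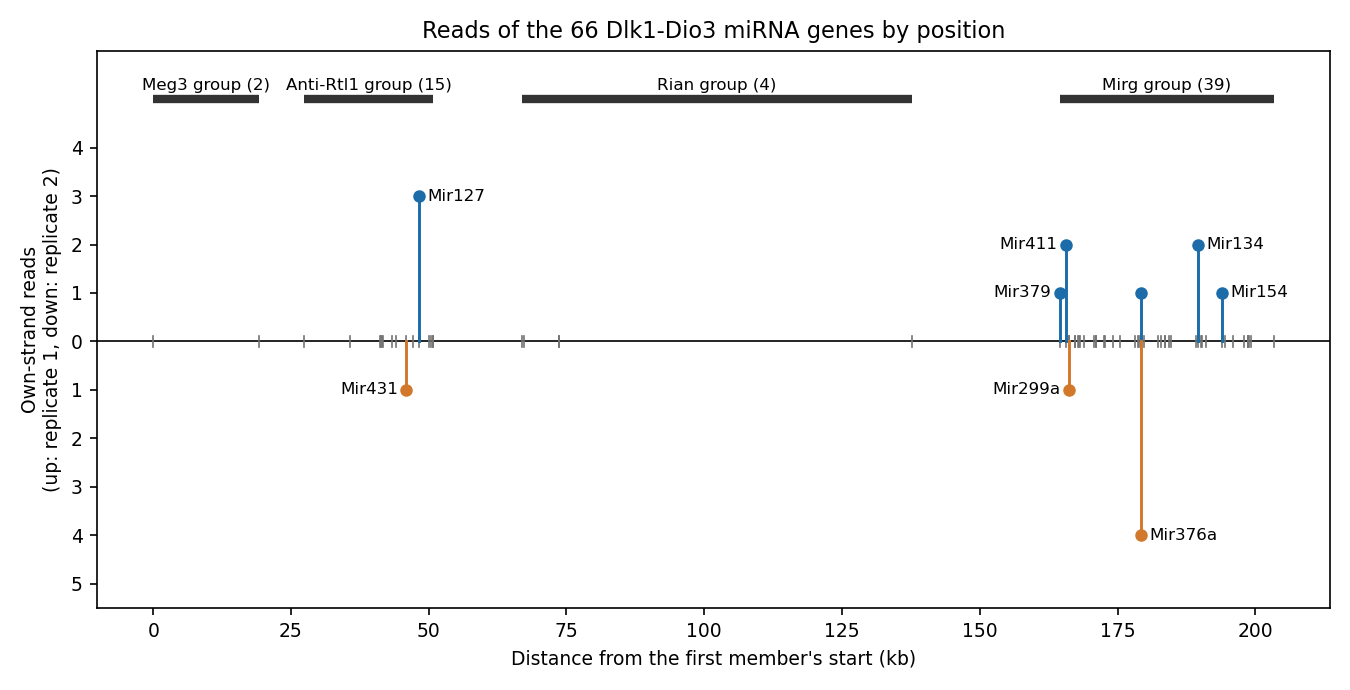
Own-strand reads of each of the 66 members (vertical axis, replicate 1 upward and replicate 2 downward) against the distance from the first member's start in kb. Grey ticks mark members, and black bars span the 4 listed position groups. The 8 genes with reads lie in the Anti-Rtl1 and Mirg groups, and Mir376a alone has reads in both directions.

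The first members belong to the Meg3 group. Mir1906-1, the first by position (chr12:109544541-109544620), and Mir770 had 0 reads in both libraries. Mir1906-1 has a copy, Mir1906-2 on chromosome X, with which it shares its mature sequence. Reads of that sequence map to both places and would not be counted for either gene. Mir1906-2 also had 0 reads.

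The Anti-Rtl1 group held 15 members, of which 2 had a read. These miRNAs are cut from the transcript opposite Rtl1, the retrotransposon-derived gene that several of them target for cleavage in placenta. The group gave 3 reads in replicate 1 (0.396 CPM, interval 0.0816 to 1.16) and 1 read in replicate 2 (0.101 CPM, 0.00257 to 0.565). Mir127, at chr12:109592846-109592915 opposite an Rtl1 exon, is the member best known for cleaving Rtl1 mRNA. It had 3 reads in replicate 1 and 0 in replicate 2. Its level in replicate 1 was 0.396 CPM, with an exact Poisson interval of 0.0816 to 1.16 CPM, and the limit in replicate 2 was 0.304 CPM. The interval in replicate 1 spans that limit.

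Mir431, at chr12:109590447-109590537, has been linked to muscle stem cells through Pax7. It had 0 reads in replicate 1 and 1 read in replicate 2, or 0.101 CPM (exact Poisson interval 0.00257 to 0.565). Mir433, for which the Wnt inhibitor Sfrp2 has been named as a muscle target, had 0 reads in both libraries. Mir136 and Mir434, which also lie opposite Rtl1, had 0 reads in both, as did the remaining members from Mir673 to Mir3071.

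The Rian group held 4 members. Rian is the maternal transcript that carries an array of small nucleolar RNAs. Its intronic miRNAs Mir341, Mir1188 and Mir370 and the downstream Mir882, outside the annotated Rian gene, all had 0 reads in both libraries. A gap of 63.9 kb without an annotated miRNA gene separates Mir370 from Mir882, the widest in the locus.

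The Mirg group is the largest, with 39 members from Mir379 (chr12:109709060-109709125) to Mir3072, the last by position (chr12:109747878-109747960). It gave 7 reads in replicate 1 (0.923 CPM, interval 0.371 to 1.90) and 5 in replicate 2 (0.507 CPM, 0.165 to 1.18), from 6 genes. Replicate 1 had reads in 5 of these genes and replicate 2 in 2, with Mir376a in both. The first genes of this group, Mir379, Mir411 and Mir299a, lie next to each other. Mir379 had 1 read in replicate 1 and 0 in replicate 2. Mir411 had 2 reads and 0, and Mir299a had 0 reads and 1. The mature 3′ arms of Mir379 and Mir411, printed above, have the same seed.

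Mir376a, at chr12:109723781-109723848, was the only member with a read in both libraries. It had 1 read in replicate 1 and 4 in replicate 2, or 0.132 CPM (exact Poisson interval 0.00334 to 0.735) and 0.405 CPM (0.110 to 1.04). Its mean of 0.269 ± 0.193 CPM (SD, n = 2) was the highest of the locus and was rank 504 among all miRNA genes. The gene overlaps Gm25252 on the opposite strand. The deposited column that ignores strand lists Mir376a at 0 in both libraries, because a read over 2 overlapping genes is ambiguous there. The same holds for Mir299a, which overlaps Mir299b. The opposite-strand column held 1 read in replicate 1 and 5 in replicate 2 over all members, at Gm25252 and Mir299b, equal in number to the own-strand reads of Mir376a and Mir299a.

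Mir134, at chr12:109734139-109734209 in an exon of Mirg, is known for its part in dendritic spine size in neurons. It had 2 reads in replicate 1 and 0 in replicate 2. Mir154, in an intron of Mirg, had 1 read and 0. Mir410, for which Sfrp2 has also been named as a target in muscle, had 0 reads in both libraries. Mir376b, Mir376c, Mir381, Mir485 and Mir409 had 0 reads in both as well. None of the 6 members without a group (Gm23912, Gm25750, Gm25252, Gm44322, Gm27379 and Gm24321) had an own-strand read. Of these, Gm25750, Gm25252, Gm44322 and Gm24321 lie opposite Mir380, Mir376a, Mir539 and Mir409. The nearest miRNA genes outside the bounds, Gm25297 at 224 kb before the first member and Mir1247 at 530.1 kb after the last, also had 0 reads.

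The members without reads include several known from brain. The mature arms of those named here, 1 per gene, are given so that other data can be searched for them.

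miR-136-5p: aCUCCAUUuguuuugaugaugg
miR-433-3p: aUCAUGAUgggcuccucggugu
miR-434-3p: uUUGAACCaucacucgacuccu
miR-341-3p: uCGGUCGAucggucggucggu
miR-370-3p: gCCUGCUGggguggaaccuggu
miR-381-3p: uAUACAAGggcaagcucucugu
miR-485-3p: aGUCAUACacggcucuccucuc
miR-409-3p: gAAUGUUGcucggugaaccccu
miR-410-3p: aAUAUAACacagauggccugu

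The 58 members without a read had a limit of 0.396 and 0.304 CPM each. No limit is given for their sum, since they were grouped by their count of 0. The table would count only reads that map to 1 place, so sequences repeated elsewhere could be missed. Of the members, 58 share no exact run of 20 bases with another annotated miRNA hairpin (pairs that overlap on opposite strands left aside). Of these 58, 51 had no read and 7 had one. The 8 that share such a run are Mir1906-1, Mir3070a, Mir3070b, Mir411, Mir758, Mir376b, Mir376c and Mir487b, and the partner lies inside the locus for all but Mir1906-1. RefSeq held 112 mature sequences for 60 of the 66 members. Of them, 107 were found in no other annotated hairpin. The other 5 were those of Mir1906-1, Mir3070a, Mir3070b and Mir299b. A genome sequence was not used here, so copies outside annotated transcripts were not looked for.

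The counts were then set beside those of all miRNA genes. A read in either library was seen at 8 of 66 members (12.1%), against 32.2% of all 2202 genes. A read in both libraries was seen at 1 member, against 25.2% of all genes. At 2 CPM or more in both libraries, 0 members were detected, against 12.4% of all genes. At 0.5 CPM 0 members were detected too, a cutoff that was not applied to all genes. The median level was 0 CPM both in the locus and over all genes. A further description used the number in the gene's name. It leaves out genes not named Mir with a number, such as the Gm genes. Of the 51 members numbered up to 1000, 15.7% had a read and 0 reached 2 CPM in both libraries. Of the 463 such genes outside the locus, 62.6% had a read and 42.8% reached 2 CPM in both libraries. Of the genes numbered over 1000, 0 of 9 members and 53.6% of 640 genes outside the locus had a read. These shares are descriptions and were not tested.

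All 8 members with a read had 1 to 5 reads over both libraries, and 4 had a single read. Over all miRNA genes with a read, 227 of 708 (32.1%) had 1 to 5 reads.

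**Figure D2:**
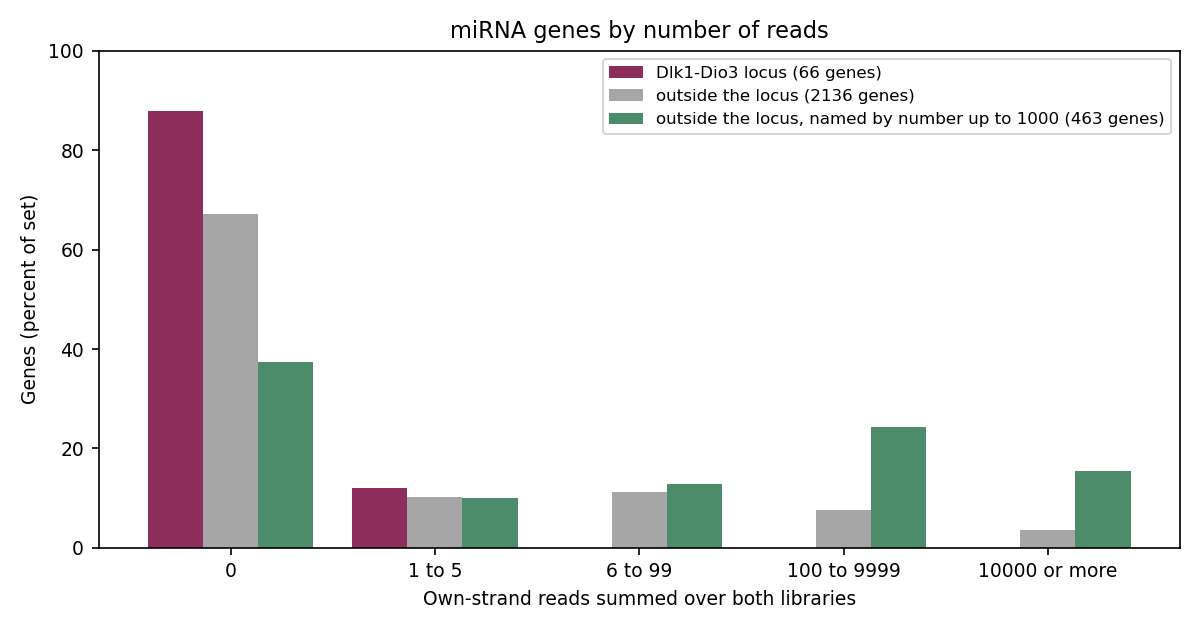
Share of genes (percent of each set) by own-strand reads summed over both libraries, for the 66 members, the 2136 miRNA genes outside the locus and the 463 of those numbered up to 1000. The members lie in the bins of 0 reads (87.9%) and 1 to 5 reads (12.1%), while the other sets reach the highest bin.

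The 5 listed miRNA genes of other imprinted regions were read at much higher levels in the same libraries. The list does not hold every miRNA gene of such regions. The list held Mir675, cut from the H19 RNA, Mir483 in the growth factor gene Igf2, Mir335 in Mest, and Mir296 and Mir298 of the Gnas region. All 5 passed 2 CPM in both libraries. Mir675, the lowest, had 339 CPM in the first library and 234 in the second. Against the whole Dlk1-Dio3 locus this was 257 reads per locus read in replicate 1 (interval 139 to 536) and 385 in replicate 2 (177 to 1050). Mir335, the highest, was at 7115 and 2157 CPM, or 4636 ± 3506 CPM (SD, n = 2). The lowest of these 10 library values lay above the upper bound of the locus in either library.

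**Figure D3:**
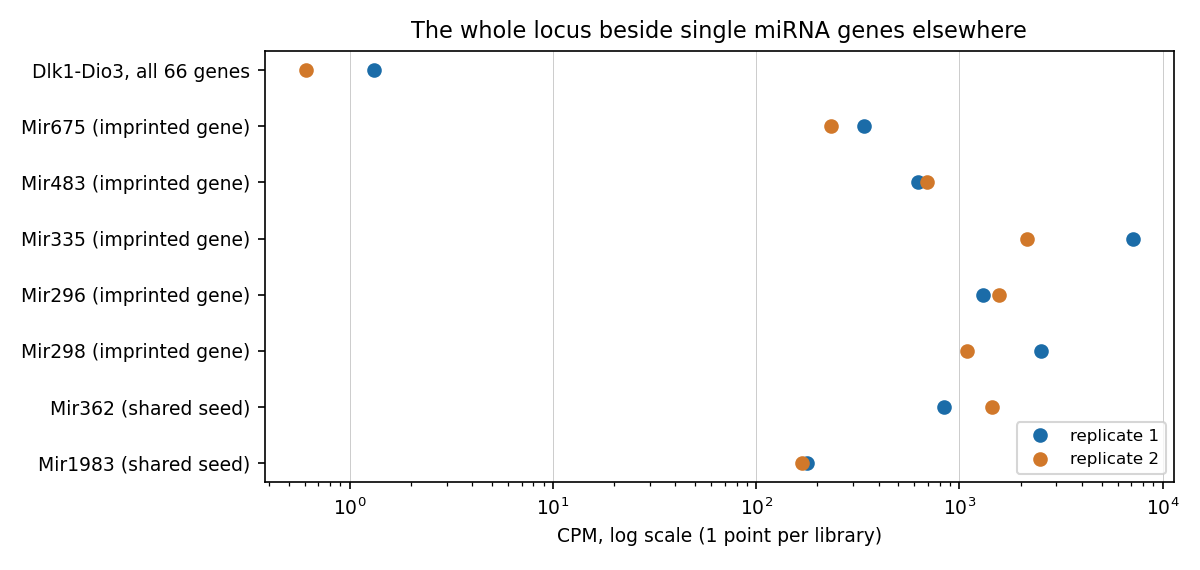
CPM per library (log axis, 1 point per library) of the whole locus and of 5 listed miRNA genes of other imprinted regions. Also shown are the 2 genes elsewhere that share a seed with a member and pass 2 CPM. The locus lies at 1.32 and 0.608 CPM, and the lowest other point is Mir1983 at 168 CPM.

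Clusters of related build were compared next. Runs of 10 or more miRNA genes with gaps of at most 10 kb numbered 4 in the annotation. Of them, 2 are in the Dlk1-Dio3 locus (Mir770 to Mir136 with 16 genes, and Mir379 to Mir3072 with 44). The others are the 119 genes inside Sfmbt2 on chromosome 2, which is itself imprinted, and 19 genes on chromosome X from Mir743 to Mir465. Reads were seen at 2 of 16 and 6 of 44 genes in the Dlk1-Dio3 runs, at 15 of 119 in Sfmbt2 and at 14 of 19 on chromosome X. The Sfmbt2 share, 12.6%, is close to the 12.1% of the locus, but its level was higher. It gave 360.4 CPM in replicate 1 and 80.7 CPM in replicate 2, led by Mir467d at 165 and 31.1 CPM. Many of its genes have near-identical relatives, and reads that mapped to several places are in no gene count. What this took from the cluster was not analysed here. The chromosome X run gave 39.2 and 24.1 CPM, led by Mir741 at 25.2 and 9.93 CPM, which is 29.7 reads per Dlk1-Dio3 read in replicate 1 (interval 15.9 to 62.6) and 39.7 in replicate 2 (17.96 to 109). With gaps of up to 50 kb, a further run of 15 genes on chromosome 7, Gm25533 to Mir344, had a read at 6 genes and 0 genes at 2 CPM in both libraries. It gave 22 and 13 reads, or 2.90 CPM (interval 1.82 to 4.39) and 1.32 CPM (0.702 to 2.25). These intervals overlap those of the Dlk1-Dio3 locus in each library. The run was higher than the locus in both libraries, with 15 genes against 66, and the difference was not tested.

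Of smaller clusters that produce one transcript, all 6 genes of the proliferation-linked Mir17 cluster and all 7 of the Mir322 cluster passed 2 CPM in both libraries. The Mir17 cluster gave 8922 and 4702 CPM, and the Mir322 cluster, which is induced in muscle differentiation, 37154 and 25601 CPM. Their leading genes were Mir17 at 5138 ± 2102 CPM and Mir322 at 20298 ± 10297 CPM (SD, n = 2).

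**Figure D4:**
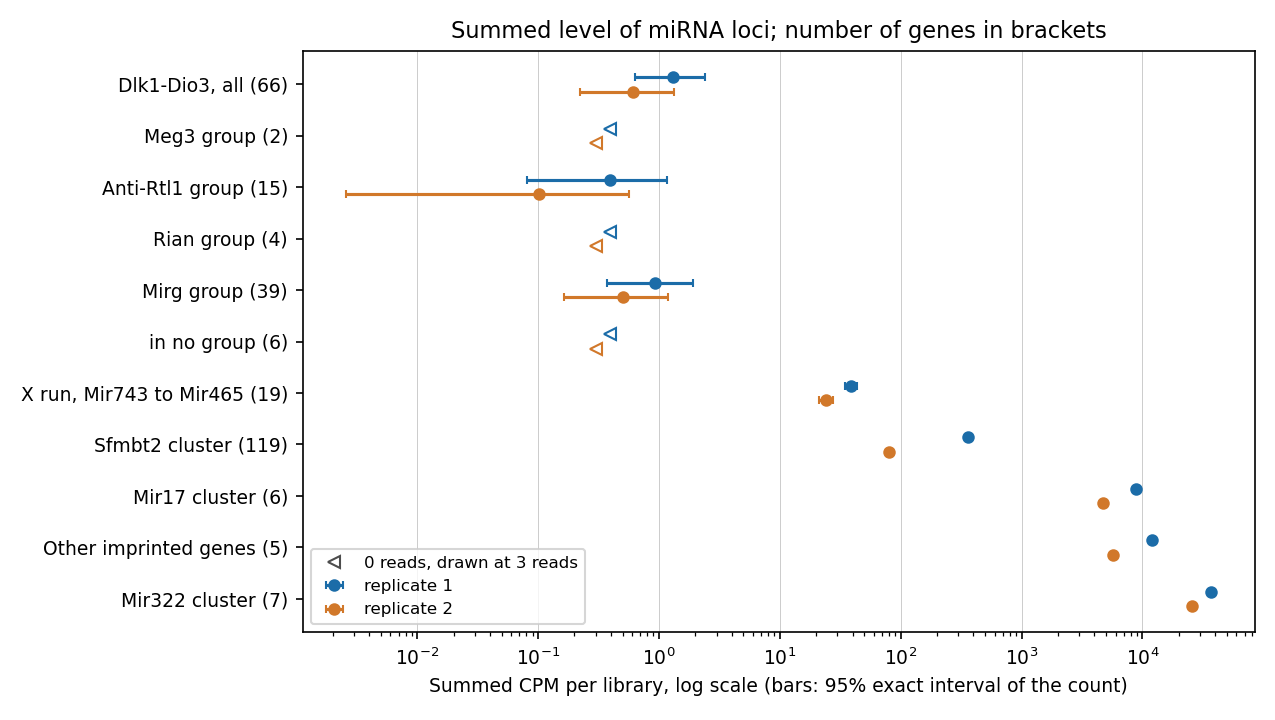
Summed CPM per library (log axis) of the locus, its position groups and the compared clusters, with the number of genes in brackets. Bars are 95% exact intervals of the count, and open triangles stand for 0 reads, drawn at the limit of 3 reads. The locus lies near 1 CPM, below every other cluster plotted in both libraries. The chromosome 7 run is not plotted.

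The seeds of the locus were compared with those of miRNAs elsewhere, a feature the choice of members did not use. The 112 mature sequences held 102 distinct seeds. Of these, 9 were carried by 2 differently named mature sequences within the locus, such as miR-379-5p with miR-1193-5p. A further count found 13 seeds also in a mature sequence outside the locus, from 16 genes. Among them is the seed of miR-1906, whose outside gene is its own copy Mir1906-2 and not a different miRNA. At 2 of the 13 seeds the outside gene passed 2 CPM in both libraries, and 4 more had an outside gene with a read in either library. These 6 groups are printed with the locus sequence first, except that miR-410-3p, the locus partner of miR-344d-3p, is printed above.

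miR-329-3p: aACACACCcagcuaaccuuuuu
miR-362-3p: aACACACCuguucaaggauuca
miR-412-3p: uUCACCUGguccacuagccg
miR-1983: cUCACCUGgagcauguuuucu
miR-540-3p: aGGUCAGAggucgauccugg
miR-6915-5p: aGGUCAGAgcagauggagguucgu
miR-344d-3p: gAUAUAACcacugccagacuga
miR-495-3p: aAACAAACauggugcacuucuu
miR-1192: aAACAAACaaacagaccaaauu
miR-377-5p: aGAGGUUGcccuuggugaauuc
miR-672-5p: uGAGGUUGguguacuguguguga

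The first pair joins Mir329, with 0 reads in both libraries, to Mir362 on chromosome X. Mir362 was at 837 CPM in replicate 1 and 1449 CPM in replicate 2, or 1143 ± 433 CPM (SD, n = 2). The second joins Mir412, also with 0 reads, to Mir1983 at 178 and 168 CPM. The counts do not say which arm of Mir362 the reads came from, so the level of its seed was not measured. The remaining outside genes were Mir6915, at 1.19 and 0.507 CPM, and Mir344d-3, Mir344d-2, Mir1192 and Mir672, each under 0.5 CPM in both libraries.

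Between the libraries, no member could be tested, since none had the 10 reads in total that the test required. Over all genes with 10 or more reads, 231 of 415 (55.7%) differed by an exact two-sided binomial test with TMM effective library sizes and Benjamini-Hochberg adjustment. With every gene that had a read, 221 of 708 genes (31.2%) were called. Of the members, 8 were tested there and 0 were called. The lowest unadjusted p was that of Mir127 (p = 0.085, adjusted p = 0.211, exact binomial test), so 0 members had an unadjusted p under 0.05. At these counts the outcome was largely fixed in advance. All 3 reads of Mir127 lay in replicate 1, the split with the lowest p that 3 reads allow. Members with 3 or fewer reads therefore could not reach an unadjusted p of 0.05, and only Mir376a had more reads. The test compares libraries, not conditions.

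Cell identity was checked from listed markers. The 8 skeletal muscle genes took 39.2% of miRNA reads on average, and each had reads in both libraries. Mir206 alone carried nearly all of this, at 340841 and 416794 CPM, followed by Mir133b at 13610 and 10568 CPM, and 5 of the 8 passed 2 CPM in both libraries. Mir1a-1, Mir1a-2, Mir133a-1 and Mir133a-2 lay between 1.01 and 4.22 CPM. These genes come in copies with the same mature miRNA, and reads that mapped to several places are in no gene count. Neurons are a main site of Dlk1-Dio3 expression. Of the 13 neuron markers, 7 passed 2 CPM in both libraries, led by Mir132 at 127 and 98.3 CPM. Mir128-1 was at 96.6 and 106 CPM, and Mir153 at 84.4 and 87.7 CPM. The Mir9 and Mir124a genes had 1 read in all, although their identical copies lose reads that map to several places. The 13 listed neuron genes took 0.0436% of miRNA reads. The 5 blood genes took 0.0144%, led by Mir142 at 89.0 and 178 CPM. The 2 endothelial genes took 0.0132%, with Mir126a at 217 and 42.9 CPM. Of 11 listed embryonic stem cell genes, the 10 in the tables took 5.98e-05%. Whether RNA of other cells contributed the 16 reads of the locus was not tested.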

How the data were processed

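Small RNA of 2 libraries of C2C12 myotubes, 1 group, was counted per miRNA gene. The deposited tables hold raw read counts made by the authors against mm10 and annotation M21, per the text deposited with them. Which aligner, counter and filters they used is not given in the sources used here. Per table there are 3 count columns (strand ignored, own strand, opposite strand, as read from the values) and 4 summary lines that name no gene, which were left out of totals. Multimapping reads, 22.0% and 17.9% of all reads, have their own line and are in no gene count. Of 15349205 and 18450359 reads, 49.4% and 53.5% were assigned on the own strand.

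All 2202 identifiers matched GENCODE M21. CPM used own-strand reads over gene rows as the total and were not divided by gene length (49 to 124 bases in the locus). Limits for a count of 0 are 3 reads. Intervals are 95% exact Clopper-Pearson or Poisson intervals. Mature sequences came from RefSeq GRCm38.p6, joined by symbol and position. Between the libraries, an exact binomial test ran over all genes with 10 or more reads, adjusted at 0.05, with TMM factors from edgeR 4.0.16 (R 4.3.3), alternatively DESeq2 1.42.0 size factors. The binomial test was also run on simulated counts that varied by counting error only. That setting does not cover variation between biological replicates. Python 3.11.15 and scipy 1.17.1 were used.

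Members and lists were chosen with earlier results of these data known. Named genes are all members with a read, the first and last member, 15 listed members, the highest gene of each compared cluster, genes next to the bounds, and at most 10 outside genes sharing a seed and passing 2 CPM. Mature arms of seed groups are printed where the outside gene had a read. Other genes, and the split by gene number, were chosen after values were seen.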

Additional observations from a re-analysis of the deposited data

Results flagged for a closer look

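Some reads lay outside the gene counts, at numbers far over the 3 reads that a zero permits. In the first library 3378438 reads mapped to several places, and in the second 3295854. Outside annotated miRNA genes there were 903243 and 1027420 reads. How many of either came from the Dlk1-Dio3 locus was not analysed here. With 1 group of 2 libraries, no search for an outlying library or for a difference between conditions was possible.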

How the results depend on the processing

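No paired analysis was possible because the series holds 1 group. The number of members detected was 0 under each of the 7 alternatives tried. These included cutoffs of 1 and 0.5 CPM and each library alone. The highest value of any member in a library was 0.405 CPM (Mir376a, replicate 2). With own-strand reads these outcomes were therefore fixed in advance. The number called different between the libraries was also 0 under the 3 tried there. With DESeq2 size factors or library totals 0 members were tested, so that outcome was fixed in advance. Without the filter 8 members were tested, each with 1 to 5 reads in total, so that outcome was largely fixed too. The share of the locus ran from 6.08e-05% to 0.000132% when 1 library was left out. It was 4.88e-05% with all reads as the denominator, below that range, and 0.000152% with Mir206 taken out of the denominator, which shrinks the denominator by construction. The number of members with a read was 8, fell to 2 when 3 reads in either library were asked for and to 1 when a read in both was, and ran from 3 to 6 with 1 library left out (3 without replicate 1). Over all genes a read in either library was seen at 32.2% and a read in both at 25.2%. The other rules were not applied to all genes, so those counts have no share beside them. Mir376a was listed at 0 with strand ignored. Runs of 10 or more miRNA genes numbered 4, or 5 with gaps of at most 50 kb. The replacement of genome positions by shared 20-base runs followed from the references at hand. At 1 to 5 reads per gene, order among the members was not resolved.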
